A study of Homo sapiens with 4 samples.

Results

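The genes examined here encode regulators of pre-mRNA splicing: SR proteins, hnRNP proteins, the PTB family and a set of regulators known for tissue-type exon choice. Members were chosen by symbol, as numbered SRSF genes, HNRNP genes that are not numbered pseudogenes, and 14 genes listed by name, each with 10 or more counts in at least 2 libraries. The rule found 47 members among 61228 counted features, namely 14 SR and TRA2 genes, 21 hnRNP genes, 3 PTB genes and 9 tissue-type regulators. A further 5 matching symbols, HNRNPA1L2 and HNRNPCL1 to HNRNPCL4, had 0 counts in each library and were left out. Counts were compared between H1792 cells given ACBI1 for 96 h and cells given DMSO, the solvent control, with 2 libraries in each group. H1792 is an established human lung cancer line, and its genotype is labelled WT in all 4 libraries. ACBI1 is a PROTAC that recruits the VHL ubiquitin ligase to SMARCA2, SMARCA4 and PBRM1, subunits of SWI/SNF chromatin remodelling complexes. The labels write the dose as 1 mM. That unit is in doubt, since micromolar may have been meant, and the counts cannot check it. The labels do not say whether the replicates were separate cultures, so p-values measure the spread between these libraries, which may be technical.

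Splicing joins exons as introns are removed, and regulatory proteins set which exons are used. SR proteins bind RNA through RNA-recognition motifs, carry arginine and serine repeats, and mostly favour exon inclusion, whereas hnRNP proteins often repress nearby splice sites. Tissue-type regulators such as MBNL, RBFOX, CELF, QKI, ESRP and NOVA proteins act on particular exons in muscle, brain or epithelium, and many SR and hnRNP genes also limit their own expression through unproductive splicing. Counts per gene show the abundance of a transcript, not which exons it contains, and splicing itself was not analysed here.

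Gene counts ranged from 64281850 to 86010100 per library. SMARCA4 transcripts were at 284 and 216 CPM with DMSO and at 414 and 398 CPM with ACBI1 (log2 change 0.70, SE 0.20, edgeR adjusted p = 0.0583). SMARCA2 was at 22.8 and 24.4 CPM with DMSO and 17.5 and 18.4 CPM with ACBI1 (log2 change -0.40, adjusted p = 0.163), and PBRM1 had a log2 change of 0.10 (adjusted p = 0.734). None of these was called, and ACBI1 acts on the protein, so that transcript levels do not check the labels. CPM is the usual depth-scaled count, here with TMM, a factor that aligns the bulk of genes between libraries. Keratins of epithelial cells were present, with KRT7 at 678 and 680 CPM with DMSO and 179 and 60.3 CPM with ACBI1. Of the 6 epithelial markers, KRT7, KRT8, KRT18 and KRT19 were called lower, CDH1 was too rare to be tested, and EPCAM was at 5.38 and 2.78 CPM with DMSO and 15.6 and 4.84 CPM with ACBI1 (log2 change 1.32, edgeR adjusted p = 0.179). The 5 immune markers summed to at most 0.222 CPM in any library, and CD3E was at 0. The 4 endothelial markers summed to 12.7 and 49.0 CPM with DMSO and to 0.123 and 0.107 CPM with ACBI1. PECAM1 made up most of the sum with DMSO and KDR most of it with ACBI1, while CDH5 had at most 4 counts and was not tested. PECAM1 (log2 change -10.1, edgeR adjusted p = 0.00431) and VWF (-7.57, adjusted p = 0.0130) were called lower. KDR (-1.98, adjusted p = 0.109) was not called. All libraries are labelled as the H1792 line, and bulk RNA cannot tell fewer cells with a transcript from less of it per cell.

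Of the 47 members, 2 were called at an adjusted p under 0.05: MBNL2 fell and NOVA2 rose. NOVA2 met the count rule for members only with ACBI1 libraries counted. With the quasi-likelihood test of edgeR, 17.4% of all 19159 genes tested were called (6.75% higher and 10.6% lower), and 21.0% of those whose mean was 5 CPM or more. The members' share was 4.26%, and 2.33% of the 43 members whose mean was 5 CPM or more, each below its background. None of the 14 SR and TRA2 genes, the 21 hnRNP genes or the 3 PTB genes was called, although 4, 2 and 1 of them had an unadjusted p under 0.05 in the higher direction and 2, 0 and 0 in the lower. Among all genes those shares were 15.4% higher and 18.5% lower. Changes were small: 3 of the 47 members (6.38%) differed by 1 log2 unit or more, against 22.6% of all genes. Where the mean was 5 CPM or more, the shares were 2.33% of members and 15.2% of genes. The 95% interval of the log2 change lay between -1 and 1 for 37 of the 47 members, so that for these a 2-fold change in either direction lay outside the interval. The 10 exceptions were SRSF2, SRSF7, SRSF12, HNRNPR, HNRNPU, ESRP1, ESRP2, MBNL2, MBNL3 and NOVA2. Without DMSO replicate 1 the number of members called was 4, and without ACBI1 replicate 1 it was 0 (5 members then had an unadjusted p under 0.05). DESeq2 called 4 members (8.51%, against 13.6% of the genes it tested). The fit with every gene that had a count called 6 (12.8%, against 16.8% of its genes).

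**Figure D1:**
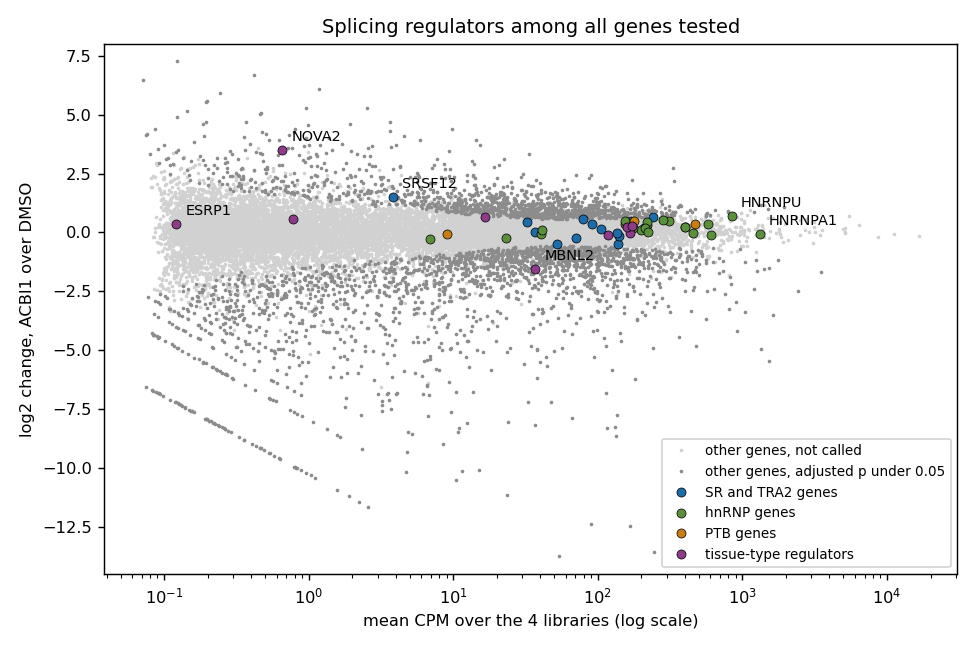
Each point is a gene tested, with its mean CPM over the 4 libraries on a log axis and its log2 change (ACBI1 over DMSO) on the other axis; grey points are other genes and coloured points are the 47 splicing regulators. Most members lie among abundant genes within 1 log2 unit of 0, with MBNL2 below and NOVA2 and SRSF12 above them.

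More members leaned higher than lower. The log2 change was positive in 32 of 47 members (68.1%) and in 50.4% of all genes, and the median was 0.23 among members and 0.01 among all genes. Both ACBI1 libraries lay above both DMSO libraries for 24 members and below them for 9, or 33 in all (70.2%). Over all genes tested, 31.1% were separated upward and 32.2% downward, 63.2% in all. Where the mean was 5 CPM or more, the log2 change was positive in 65.1% of members and 51.6% of genes. Separation there was nearly as frequent in genes (67.7%) as in members (69.8%). It was upward in 48.8% of those members and 34.4% of those genes, and downward in 20.9% and 33.3%. By role, values were positive in 9 of 14 SR and TRA2 genes, 15 of 21 hnRNP genes, 2 of 3 PTB genes and 6 of 9 tissue-type regulators, and whether the roles differ from each other or from all genes was not tested. Summed over the 21 hnRNP genes, the level was 6971 and 5726 CPM with DMSO and 7678 and 7079 CPM with ACBI1. For the 14 SR and TRA2 genes the sum was 1385 and 1440 CPM with DMSO and 1491 and 1705 CPM with ACBI1. Such sums weigh abundant genes most. HNRNPU had a mean of 646 CPM with DMSO and 1045 CPM with ACBI1, and SRSF2 of 186 and 297 CPM, and neither was called. The log2 change was negative in 6 of the hnRNP genes and 5 of the SR and TRA2 genes. The members' median stayed positive in each fit that left out 1 library, at 0.14 without DMSO replicate 2, 0.17 without ACBI1 replicate 1, 0.22 without ACBI1 replicate 2 and 0.32 without DMSO replicate 1.

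**Figure D2:**
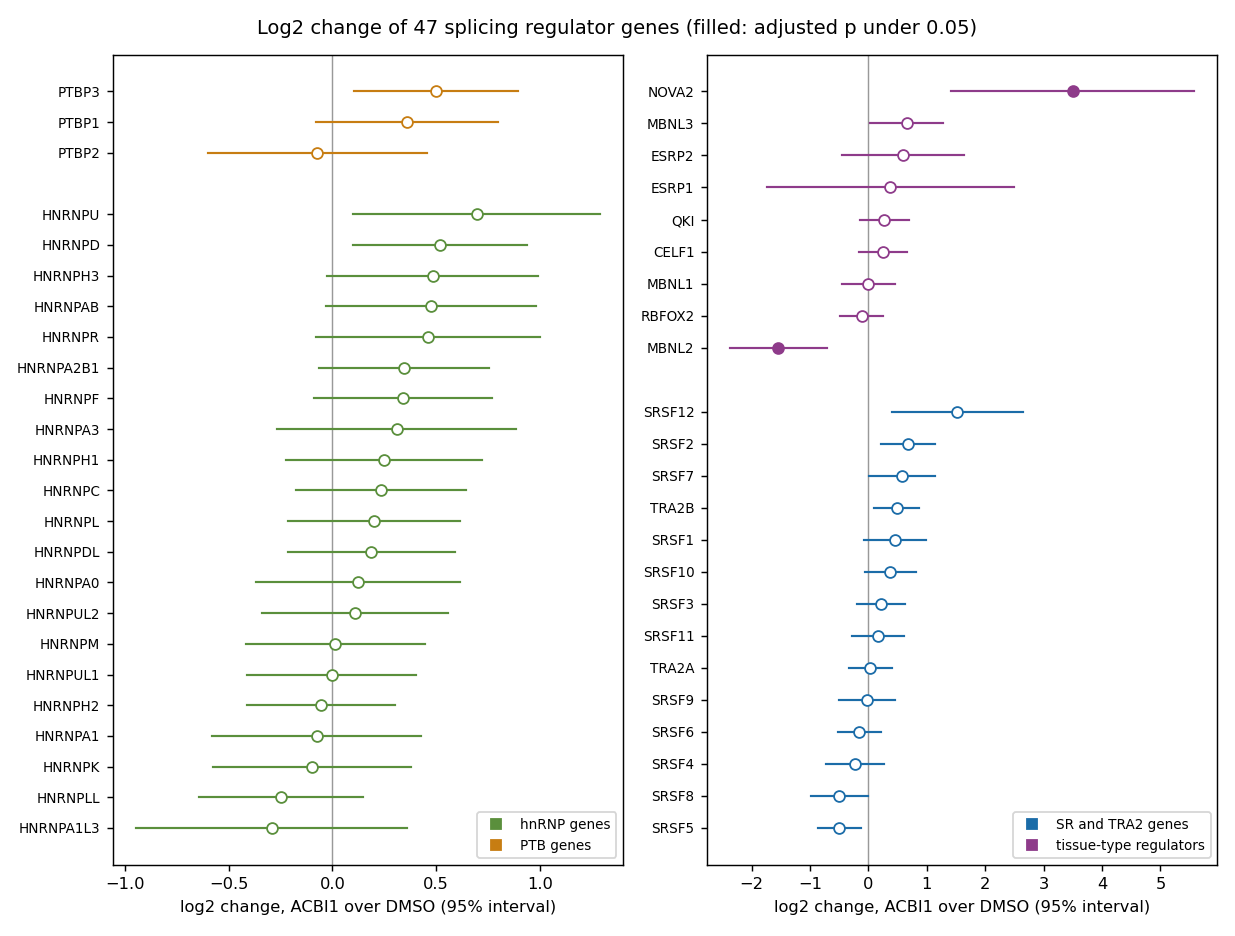
Points give the log2 change (ACBI1 over DMSO) of each of the 47 members from edgeR and lines its 95% interval, in the left panel for hnRNP and PTB genes and in the right panel for SR, TRA2 and tissue-type genes, on different x scales. Only MBNL2 and NOVA2 are filled (adjusted p under 0.05), and the other points stand between -0.50 (SRSF5) and 1.52 (SRSF12).

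For each of the 2 called genes, 1 upstream window free of GENCODE exons is shown, and these 2 windows stand in contrast. Both are RefSeq sequence of build GRCh38.p14, the 250 bases before an annotated start, written 5′ to 3′ on the gene's own strand. Capitals mark each TGANTCA, with any base at N, which reads as the same pattern on both strands. It is looser than the core sequence bound by AP-1 factors, TGACTCA or TGAGTCA, and all shares of windows below are for the looser pattern.
MBNL2 chr13:97141584-97141833 (+): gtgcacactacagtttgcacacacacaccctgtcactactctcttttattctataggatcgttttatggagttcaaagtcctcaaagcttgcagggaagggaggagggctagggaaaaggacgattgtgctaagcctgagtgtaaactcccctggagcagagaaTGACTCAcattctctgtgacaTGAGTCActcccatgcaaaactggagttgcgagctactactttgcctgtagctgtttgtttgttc
NOVA2 chr19:45973866-45974115 (-): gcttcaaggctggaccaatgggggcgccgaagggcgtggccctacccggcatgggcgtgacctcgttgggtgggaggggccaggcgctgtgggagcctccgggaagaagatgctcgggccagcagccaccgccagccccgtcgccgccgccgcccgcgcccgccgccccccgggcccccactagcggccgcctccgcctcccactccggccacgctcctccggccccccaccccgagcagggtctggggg
The MBNL2 window held 2 copies, with TGACTCA beginning 86 bases and TGAGTCA beginning 65 bases before the start. Of 64 upstream windows of 39 members with an entry, it was the only one with a match, while 6.57% of 35116 windows of all genes held at least 1 copy and 0.402% held 2 or more. This start lies 79600 bases before the MBNL2 gene as GENCODE 29 annotates it, and no GENCODE exon overlaps the window. A second MBNL2 start, 899 bases inside the GENCODE gene, had 0 matches, 50% G and C and 4 CG dinucleotides. Its window has 37 bases in GENCODE exons and is not shown, so the contrast in matches depends on the window chosen. For both windows shown, the bases checked after the start were in no GENCODE transcript of the gene. Gene counts do not tell which start was used, and a match is a description of the letters, not evidence of binding. The NOVA2 window was rich in G and C (78.0%, with 27 CG dinucleotides), while the MBNL2 window shown held 46.8% and 3. The median over all windows was 58.0% and 11, and over the members' windows 64.8% and 24.

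MBNL2 encodes a muscleblind-like protein, a zinc-finger regulator of exons that switch during development and one of the proteins sequestered by repeat RNA in myotonic dystrophy. It lies on chromosome 13 (97221434 to 97394120, plus strand, GRCh38), and no other annotated exon overlaps its own. MBNL2 was at 46.0 and 63.6 CPM in DMSO replicates 1 and 2 and at 12.9 and 24.8 CPM in ACBI1 replicates 1 and 2. The groups did not overlap, and replicate 2 was the higher library in each. This was a 2.91-fold fall (8324 counts against 2784), a log2 change of -1.54 (SE 0.34, 95% interval -2.36 to -0.72, edgeR adjusted p = 0.0306). All 7 other settings that kept the 4 libraries and used no block called MBNL2 lower. Without ACBI1 replicate 1 the log2 change was -1.14 and the adjusted p was 0.0519, past the threshold, and over the 4 fits with a library left out it ran from -2.09 to -1.14. The 4 stromal markers (DCN, PDGFRB, LUM, COL3A1) summed to 25.2 and 69.0 CPM with DMSO and to 10.1 and 15.5 CPM with ACBI1, the same order of libraries as MBNL2. None of these 4 was at 0 in a library, DCN and LUM were called lower, and whether these transcripts relate to the fall of MBNL2 was not tested.

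The other muscleblind-like genes were not called. MBNL1, the most widely expressed member of the family, was at 146 and 187 CPM with DMSO and 160 and 173 CPM with ACBI1, overlapping between groups (log2 change -0.00, 95% interval -0.46 to 0.45, edgeR adjusted p = 0.992). Its sign turned under several settings, and 15.6% of its exonic length is shared with other genes, chiefly MBNL1-AS1 on the opposite strand. MBNL3, the X-linked member, was at 15.5 and 10.3 CPM with DMSO and 22.0 and 18.6 CPM with ACBI1, a separation between groups whose log2 change of 0.65 (SE 0.26) did not pass (adjusted p = 0.133). The count of MBNL2 per count of MBNL1 in the same library, which does not depend on scaling, was 0.315 and 0.340 with DMSO and 0.0811 and 0.144 with ACBI1. The log2 ratio was lower by a mean of 1.60 with ACBI1, at -1.61 ± 0.08 with DMSO and -3.21 ± 0.58 with ACBI1 (SD, n = 2). Divided by exonic length, MBNL2 stood at 11.2 CPM per kilobase with DMSO and 3.84 with ACBI1, and MBNL1 at 16.7 and 16.6.

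NOVA2 encodes a KH-domain protein known for neuronal splicing and for a role in vascular cells. The gene is on chromosome 19 (45933734 to 45973546, minus strand, GRCh38). It had 4 and 12 counts in DMSO replicates 1 and 2 and 170 and 34 counts in ACBI1 replicates 1 and 2, or 0.0491, 0.167, 1.90 and 0.519 CPM. Both ACBI1 libraries were above both DMSO libraries, but ACBI1 replicate 1 held 78.5% of the group's summed CPM. The fitted log2 change was 3.50 (SE 0.85, 95% interval 1.42 to 5.58, edgeR adjusted p = 0.0405). The call was lost without ACBI1 replicate 1 (log2 change 2.27, adjusted p = 0.122), without DMSO replicate 1 (2.86, adjusted p = 0.0534) and with limma-voom (3.43, adjusted p = 0.0554). Even after the rise the level was low, at 0.139 CPM per kilobase of exon with ACBI1. Of the 4 neuronal markers 2 were tested, and neither was called. SNAP25 was at 1.17 and 2.14 CPM with DMSO and 2.02 and 1.40 CPM with ACBI1, and SYT1 was at 186 and 109 against 87.0 and 72.6 CPM. RBFOX3 had at most 4 counts and STMN2 had 0, too few to be tested. All libraries are labelled as H1792, and whether these transcripts relate to the rise of NOVA2 was not tested.

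**Figure D3:**
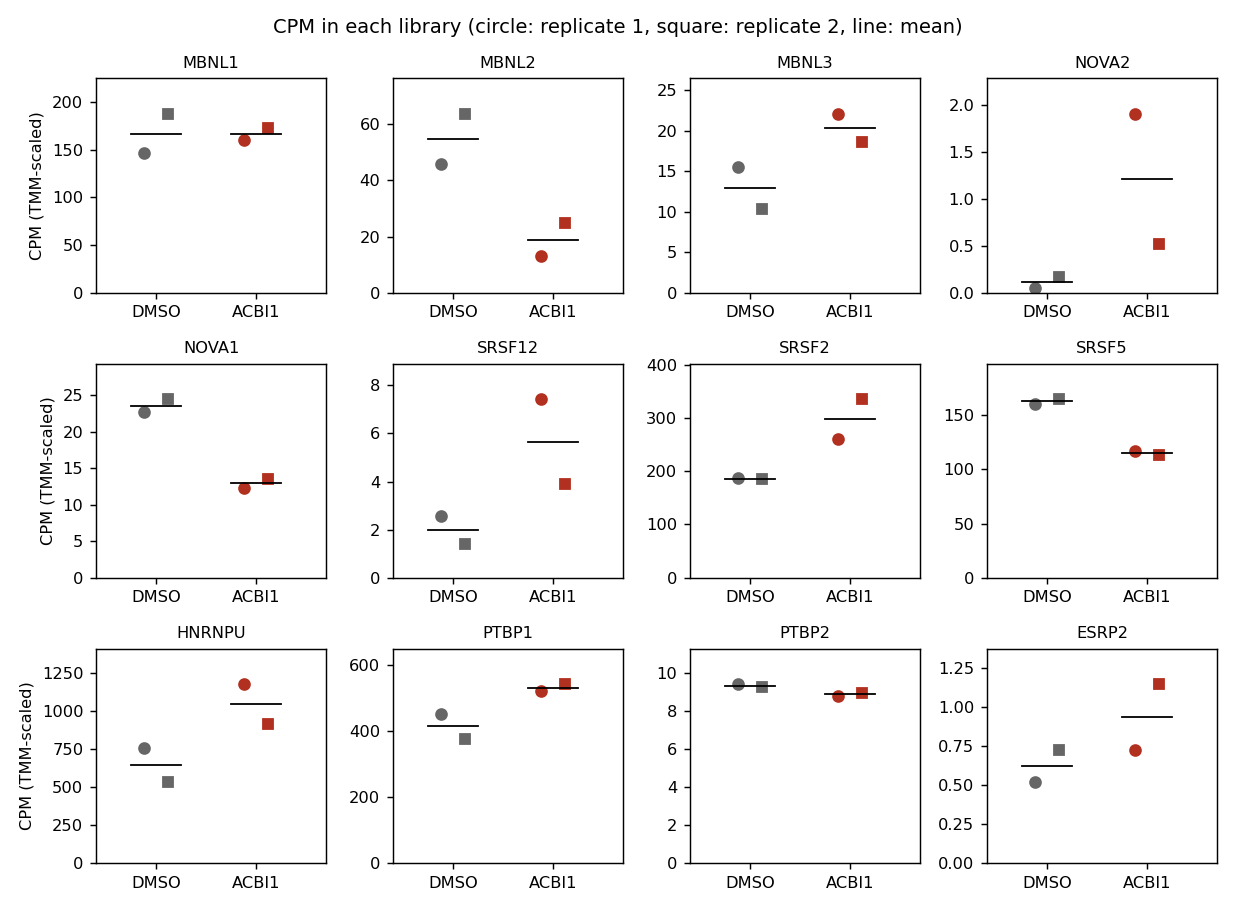
Each panel gives a gene's CPM (TMM-scaled, axis from 0) in the 4 libraries, grey for DMSO and red for ACBI1, with circles for replicate 1, squares for replicate 2 and a line at each group's mean. MBNL2 falls in both ACBI1 libraries while MBNL1 overlaps between groups, and the ACBI1 mean of NOVA2 is set largely by replicate 1; NOVA1 is a related gene outside the 47 members.

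ESRP1 and ESRP2 encode the epithelial splicing regulatory proteins, which maintain exon choices typical of epithelial cells. In H1792 cells ESRP1 was near the lower limit of detection, and ESRP2 was measured at a low level. ESRP1 had 14 and 3 counts with DMSO and 19 and 4 with ACBI1, so that replicate 1 was the higher library in each group and the groups overlapped (log2 change 0.37, 95% interval -1.74 to 2.48, edgeR adjusted p = 0.803). ESRP2 had 42 and 52 counts with DMSO and 65 and 75 with ACBI1, or 0.516, 0.723, 0.726 and 1.14 CPM. Its groups were narrowly separated upward, and it was not called (log2 change 0.59, SE 0.43, edgeR adjusted p = 0.382). The epithelial cadherin gene CDH1 was as rare as ESRP1, with 4 to 16 counts per library. At this depth a change of ESRP1 by a factor of 2 in either direction was not detectable.

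The remaining tissue-type regulators were well expressed and none was called. RBFOX2, which binds GCAUG motifs beside alternative exons, was at 128 and 118 CPM with DMSO and 114 and 112 CPM with ACBI1, separated downward by a small margin (log2 change -0.11, 95% interval -0.49 to 0.26, edgeR adjusted p = 0.646). QKI, a STAR-family protein that acts in glia and in mesenchymal cells, was at 165 and 145 CPM with DMSO and 201 and 173 CPM with ACBI1 (log2 change 0.27, adjusted p = 0.317). CELF1, which often opposes MBNL proteins on shared exons, was at 157 and 134 CPM with DMSO and 164 and 182 CPM with ACBI1 (log2 change 0.25, adjusted p = 0.358). For QKI and CELF1 both ACBI1 libraries lay above both DMSO libraries. Their intervals reached 0.69 and 0.66, so that rises of up to about that size are compatible with these libraries.

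The SR genes spread to both sides of 0. SRSF12, an SR-related protein gene, had the widest difference of the group: it was at 2.55 and 1.39 CPM with DMSO and 7.42 and 3.90 CPM with ACBI1. The groups did not overlap and replicate 1 was the higher library in each. Its log2 change of 1.52 (SE 0.46, edgeR adjusted p = 0.0719) missed the threshold. It passed with DESeq2 (adjusted p = 0.00459) and with every gene that had a count (adjusted p = 6.03e-04), among adjusted p up to 0.0703 over 6 settings with the 4 libraries and no block. It also passed without DMSO replicate 1 (2.03, adjusted p = 0.0261) and without ACBI1 replicate 2 (1.90, adjusted p = 0.0402), but not without DMSO replicate 2 (1.15) or ACBI1 replicate 1 (0.99).

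SRSF2, which binds exonic enhancers and is recurrently mutated in myeloid disease, was at 187 and 186 CPM with DMSO and at 260 and 335 CPM with ACBI1. The DMSO libraries were nearly level and both ACBI1 libraries were higher. The log2 change was 0.68 (SE 0.19) with an edgeR adjusted p of 0.0574, and the gene was called in 3 of 7 other settings with the 4 libraries and no block, over which adjusted p ran from 0.0116 to 0.0581. Exons of other genes, chiefly MFSD11 on the opposite strand, overlap 36.7% of its exonic length. SRSF7 was at 58.3 and 69.0 CPM with DMSO and 75.8 and 114 CPM with ACBI1 (log2 change 0.57, adjusted p = 0.143). It was called by edgeR with every gene that had a count (adjusted p = 0.0420). SRSF1, the founding SR protein, was at 27.7 and 27.1 CPM with DMSO and 30.4 and 44.6 CPM with ACBI1 (log2 change 0.45, adjusted p = 0.204). Of the SRSF1 exonic length, 60.7% is overlapped by another annotated gene, and reads in the shared stretch cannot be assigned to either.

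SRSF5 and SRSF8 leaned the other way. SRSF5 was at 161 and 165 CPM with DMSO and at 117 and 113 CPM with ACBI1, tight groups far apart, yet the log2 change of -0.50 (SE 0.15) had an edgeR adjusted p of 0.0719. SRSF8, a close copy of the SRSF2 coding sequence, was at 53.0 and 68.4 CPM with DMSO and 38.1 and 47.9 CPM with ACBI1 (log2 change -0.50, adjusted p = 0.143). SRSF4 and SRSF6 had log2 changes of -0.23 and -0.15, SRSF3, SRSF10 and SRSF11 had 0.21, 0.38 and 0.16, and SRSF9 had -0.02, with a sign that turned under scaling by library size only (0.07).

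TRA2A and TRA2B encode SR-like proteins that activate exons with GAA-rich enhancers. TRA2B was at 146 and 137 CPM with DMSO and at 200 and 196 CPM with ACBI1, with a log2 change of 0.48 (SE 0.16, edgeR adjusted p = 0.0841), so the gene was not called. Under scaling by library size only it was called (0.57, adjusted p = 0.0474). TRA2A was at 37.1 and 35.1 CPM with DMSO and 37.2 and 36.7 CPM with ACBI1 (log2 change 0.03, adjusted p = 0.909). The count of TRA2A per count of TRA2B was 0.254 and 0.255 with DMSO and 0.186 and 0.187 with ACBI1, the smallest spread between replicates among the ratios computed. The mean log2 ratio differed by -0.45 (SDs 0.00504 with DMSO and 0.00354 with ACBI1, n = 2). This pair had the tightest replicates of 10 pairs, and an SD from 2 libraries can be small by chance. These SDs are therefore no scale for judging the difference. The exact permutation test, given with the other ratios below, did not set this pair apart from the other separated pairs.

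The hnRNP genes were the most abundant members. HNRNPA1 was at 1544 and 1173 CPM with DMSO and 1336 and 1242 CPM with ACBI1, overlapping between groups (log2 change -0.08, edgeR adjusted p = 0.833; 0.01 under scaling by library size only). HNRNPA1 encodes a repressor that shuttles between nucleus and cytoplasm. The file lists 74 numbered HNRNPA1 pseudogenes, whose summed counts were 0.465% to 0.572% of those of HNRNPA1 in any library, but reads that align in several places are not in the gene counts. HNRNPA1L3, a further copy, was at 6.21 to 8.87 CPM. Per kilobase of exon, HNRNPA1 led the members with DMSO at 267 CPM, followed by HNRNPK at 122 and HNRNPAB at 121. With ACBI1 the first was again HNRNPA1 at 253, and HNRNPAB at 168 stood above HNRNPK at 114.

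HNRNPU, a scaffold protein that also binds chromatin, had the highest log2 change of the hnRNP genes, 0.70 (SE 0.24, edgeR adjusted p = 0.104). Exons of other genes, chiefly COX20, overlap 15.6% of its exonic length. It was at 757 and 534 CPM with DMSO and 1175 and 915 CPM with ACBI1, so the groups were apart while replicate 1 was the higher library in both. The edgeR fit with every gene that had a count called HNRNPU (adjusted p = 0.00810). Without DMSO replicate 1 it was called (log2 change 0.97, adjusted p = 0.0325), and without DMSO replicate 2 or either ACBI1 library it was not. HNRNPD, which binds AU-rich elements, was at 249 and 213 CPM with DMSO and 342 and 320 CPM with ACBI1 (log2 change 0.52, adjusted p = 0.0904). HNRNPH3, HNRNPAB and HNRNPR had log2 changes of 0.48, 0.48 and 0.46, each with groups apart and adjusted p from 0.164 to 0.204. HNRNPK, a KH-domain protein, was at 679 and 569 CPM with DMSO and 637 and 529 CPM with ACBI1 (log2 change -0.10, adjusted p = 0.767). HNRNPM and HNRNPUL1 had log2 changes of 0.01 and -0.00, with intervals from -0.42 to 0.45 and from -0.41 to 0.40. HNRNPUL2 and HNRNPH2 share 44.1% and 16.3% of their exonic length with other genes, and the read-through features that join them to a neighbour had 0 counts. Reads in shared exons may be left uncounted for each gene, so these 0 counts do not show that no reads were lost.

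The PTB proteins bind pyrimidine-rich tracts and mostly repress exons, with PTBP1 in most cells, PTBP2 in neurons and PTBP3 in blood and other lineages. PTBP1 was at 452 and 376 CPM with DMSO and at 522 and 541 CPM with ACBI1 (log2 change 0.36, 95% interval -0.08 to 0.80, edgeR adjusted p = 0.216). PTBP3 was at 153 and 144 CPM with DMSO and at 222 and 198 CPM with ACBI1 (log2 change 0.50, SE 0.16, adjusted p = 0.0856). For PTBP1 and PTBP3 the groups were apart, and neither was called in any of the 7 other settings with the 4 libraries and no block. PTBP2 was at 9.39 and 9.26 CPM with DMSO and 8.79 and 8.95 CPM with ACBI1 (log2 change -0.07, adjusted p = 0.850; 0.02 under scaling by library size only). Per kilobase, PTBP1 stood at 60.2 CPM and PTBP2 at 0.721 CPM with DMSO.

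Ratios of counts between related genes within a library were computed for 10 pairs. With ACBI1 the ratio was lower in both libraries than in either DMSO library for 5 pairs, higher for 1 and overlapping for 4. The exact permutation test, two-sided, cannot go below 0.3333 for 2 libraries against 2, and that value held for the 6 separated pairs (0.556 adjusted over the 10). Besides MBNL2 to MBNL1 and TRA2A to TRA2B, the lower ratios were PTBP2 to PTBP1 (mean log2 difference -0.44), HNRNPLL to HNRNPL (-0.45) and HNRNPA1 to HNRNPA2B1 (-0.41). HNRNPLL, known from exon switching in T cells, was itself at 25.1 and 24.9 CPM with DMSO and 21.0 and 21.1 CPM with ACBI1 (log2 change -0.25, edgeR adjusted p = 0.334). The ratio of MBNL3 to MBNL1 was the higher one, with a mean log2 difference of 0.67. ESRP1 to ESRP2 differed more between replicates than between groups.

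**Figure D4:**
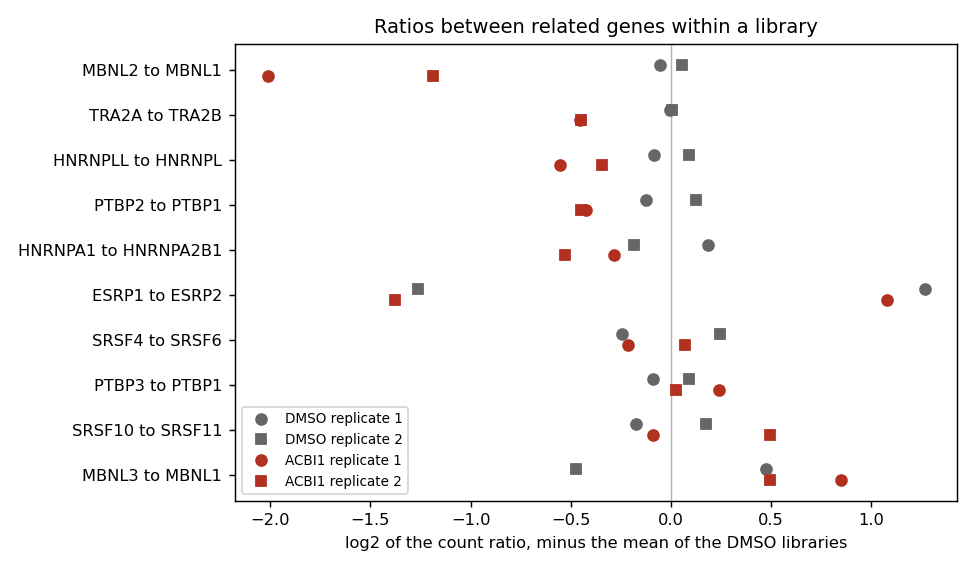
For 10 pairs of related genes, points give the log2 of the count ratio in each library minus the mean of the 2 DMSO libraries, grey for DMSO and red for ACBI1, with circles for replicate 1 and squares for replicate 2. MBNL2 to MBNL1 shows the widest shift (mean -1.60), TRA2A to TRA2B the tightest replicates, and ESRP1 to ESRP2 separates by replicate number.

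Other genes of the splicing pathway were counted from lists. Over 4 lists with 116 tested genes, 14 were called, 9 higher and 5 lower, a share of 12.1% against 17.4% of all genes tested. Without DMSO replicate 2 this number was 5, and without either ACBI1 library it was 2. In each of these 3 fits no gene of the core spliceosome, kinase or exon junction lists was called. In the core spliceosome list (snRNP proteins, branch-site factors and helicases) all 50 genes were tested and 3 were called (6%, against 17.4% of all genes), each higher: SNU13 (log2 change 0.72, edgeR adjusted p = 0.0310), SNRPD1 (0.71, adjusted p = 0.0475) and TXNL4A (0.70, adjusted p = 0.0317). SNU13 binds U4 snRNA, SNRPD1 is a Sm core protein, and TXNL4A belongs to the U5 particle. The log2 change was positive in 44 of the 50 (50.4% of all genes), with a median of 0.33.

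Of 10 genes for the kinases that phosphorylate SR proteins and the importin that carries them, 1 was called (10%, against 17.4% of all genes). This was SRPK3, a muscle-type SR kinase gene with 17 and 25 counts with DMSO and 4 and 1 with ACBI1 (log2 change -3.07, edgeR adjusted p = 0.0349), 30.2% of whose exonic length is overlapped. The median of these 10 was -0.44, the opposite sign to the members. Of 18 genes for the exon junction complex and nonsense-mediated decay, 3 rose and 1 fell (22.2% called, against 17.4% of all genes), with a median of 0.44. PNN rose from 144 and 109 to 234 and 221 CPM (log2 change 0.85, adjusted p = 0.0335), SMG1, a kinase of the decay pathway, by a log2 of 0.77 (adjusted p = 0.0298) and RNPS1, a splicing activator, by 0.66 (adjusted p = 0.0398). SMG6, the endonuclease of the decay pathway, fell by 0.63 on the log2 scale (adjusted p = 0.0467), and shares 25.4% of its exonic length with HIC1 and other genes.

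Of 45 other RNA-binding splicing regulators, 38 were tested, 3 rose and 3 fell (15.8% called, against 17.4% of all genes), with a median of 0.15. CELF5, a brain-type relative of CELF1, rose from 2 and 5 counts to 112 and 37 (log2 change 4.26, edgeR adjusted p = 0.0150), with ACBI1 replicate 1 the higher library as for NOVA2. KHDRBS3, a STAR-family protein gene, rose from 1.56 and 1.35 to 5.76 and 4.67 CPM (log2 change 1.84, adjusted p = 0.0151). NOVA1, the relative of NOVA2, was at 22.6 and 24.4 CPM with DMSO and fell to 12.3 and 13.5 CPM with ACBI1 (log2 change -0.87, adjusted p = 0.0272), opposite in direction to NOVA2. PCBP3 fell by 1.60 on the log2 scale (adjusted p = 0.0221).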

How the data were processed

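RNA-seq was measured in 4 libraries of H1792 cells, 2 with DMSO and 2 with ACBI1, grouped by sample title. The deposited values are raw counts per gene symbol, not normalized, made by the authors with TopHat2 2.1.1 on hg38 and HTSeq 0.11.0, per the submitters' processing notes. The annotation and strand setting are not given in the sources used here, so that reads of overlapping or near-identical genes may be dropped or misplaced. Reads in gene counts were 84.6% to 86.1% of those listed, and lines naming no gene were left out. Total RNA was used and the library kit named is one for DNA, per the labels' protocols; how RNA was selected is not stated.

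All genes passing filterByExpr (minimum count 10, minimum total 15) were tested with edgeR 4.0.16 in R 4.3.3 (TMM, glmQLFit in its legacy form, glmQLFTest, two-sided), with Benjamini-Hochberg adjustment over 19159 genes and calls under 0.05. The SE is the log2 change over the square root of F, and 95% intervals use 6.15 degrees of freedom. Alternatives were other scalings and filters, the newer edgeR fit, DESeq2 1.42.0, limma-voom (limma 3.58.1), a threshold of 0.01, a replicate block and each library left out, where the lone library is assumed to vary like the others. Fits were tested on simulated data with less spread between replicates than these libraries have, so that check does not cover their noise. Exonic lengths, positions and overlaps came from GENCODE 29 (GRCh38), and promoter windows from RefSeq.

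The members and the gene lists were chosen with earlier results of these data known. By the rule for named genes, values per library are given for called members, the 14 genes listed by name and the 3 most abundant members, and up to 4 called genes per list, those that differed most, are named. SRSF1, SRSF2, SRSF5, SRSF7, SRSF8, SRSF12, HNRNPD, HNRNPLL and HNRNPA1L3 fall outside that rule and were given values per library after those values were seen.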

Additional observations from a re-analysis of the deposited data

How the results depend on the processing

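The 47 members' log2 changes were refitted in 7 settings with the 4 libraries and no block. In 307 of 325 such values the direction and the side of the threshold were as reported, 8 passed the threshold in place of not passing, and 1 (NOVA2 with limma-voom) lost it. The share of members called stayed below that of all genes in each of these settings. The number of members called, 2, became 4 under scaling by library size only and with DESeq2, 6 with every gene that had a count, 1 with a mean of at least 5 CPM (where NOVA2 was not tested) and with limma-voom, and 0 at a threshold of 0.01. With a library left out it ran from 0 to 4. All genes called, 3331, became 5518 with every gene that had a count and 783 at a threshold of 0.01, and 1682 to 3799 with a library left out. The 14 calls in the pathway lists became 24 with every gene that had a count, 0 at a threshold of 0.01, and 2 to 19 with a library left out. The separated ratios, 6 of 10, numbered 7 to 10 with a library left out. Leaving out a library cannot undo a separation, so this number could not fall and says nothing about stability. Log2 changes that turned sign were near 0: under scaling by library size only SRSF9 was 0.0670, HNRNPA1 0.0141, HNRNPH2 0.0315, HNRNPUL1 0.0860, PTBP2 0.0152 and MBNL1 0.0810, and that scaling moved the median of all genes to 0.09; with DESeq2 HNRNPUL1 was 0.0070 and MBNL1 0.0068, and with limma-voom MBNL1 was 0.0066. With a library left out, SRSF9 ran from -0.23 to 0.17, TRA2A ran from -0.00881 to 0.0715, HNRNPA0 ran from -0.12 to 0.33, HNRNPA1 ran from -0.26 to 0.14, HNRNPK ran from -0.24 to 0.0357, HNRNPM ran from -0.13 to 0.17, HNRNPUL1 ran from -0.0683 to 0.0667, HNRNPUL2 ran from -0.0308 to 0.26, ESRP1 ran from -0.81 to 1.72 and MBNL1 ran from -0.17 to 0.19.

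With the replicate number as a block (replicate block), 17 members were called, 14 higher and 3 lower, and MBNL1 turned to 0.0067. That was 36.2% of members, below the 41.3% of all genes (7909) called with the block. In the pathway lists 57 of 116 tested genes were called. The labels give the same numbers to both groups but name no shared batch, and with 2 libraries a group the deviations of same-numbered libraries correlate at 0.442 by a single value. Depth limits ESRP1, ESRP2 and NOVA2 most, with at most 170 counts in any library.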
